A study of Sus scrofa with 12 samples.

Results

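CRYAB (ENSSSCG00000036724), which encodes alpha-B-crystallin, and HSPB2 (ENSSSCG00000015027) are neighbouring small heat shock genes that were listed together as targets of 1 predicted cut in degradome tables of pig loin muscle. Every table row that named either gene as target was taken, which gave 128 of 19855 rows in 12 libraries and 2 of 1416 gene identifiers. CRYAB stood in 64 of these rows and HSPB2 in the other 64. The pair was chosen by its measured listing, that is the number of rows, the libraries that hold them and the miRNA assigned, so these values are a description and carry no test.

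Small heat shock proteins share an alpha-crystallin domain and hold unfolding proteins without using ATP, so that other chaperones can refold or clear them. In mammalian muscle alpha-B-crystallin associates with desmin, titin and actin, and human CRYAB mutations cause a myopathy with desmin aggregates. HSPB2, also called MKBP, was described as a binding partner of the human myotonic dystrophy protein kinase DMPK and forms a complex with HSPB3. In mammals the 2 genes lie head to head and are transcribed away from each other. The miRNA miR-125a belongs to the family related to worm lin-4, and animal miRNAs usually repress targets without cutting them. Parallel analysis of RNA ends (PARE, degradome sequencing) captures the 5′ ends of broken transcripts, and the program PAREsnip pairs such ends with small RNAs that could have directed a cut there.

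The libraries came from loin of female pigs of 3 breeds, recorded at day 180 and slaughtered at 100 ± 2 kg, with RNA integrity numbers over 7. Each breed had 2 libraries titled high MM, with shear force labelled heavy, and 2 titled low MM, with shear force labelled light. The labels leave MM unexplained, the series title names muscle mass, and the design text describes chickens while every sample is labelled pig. The breeds were Hampshire, Pietrain and Polish Large White, and nothing else distinguishes the animals in the labels. For the 4 Pietrain libraries the tab names of the deposited workbook exchange high and low, so high and low follow the titles below, and the reading by tab names is given beside the main counts. A missing row means that no interaction was listed, not that a cut was measured at 0. Cutting, the amount of transcript per cell and the number of cells of a type all bear on a listing in bulk tissue and cannot be told apart here.

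Each of the 64 windows found for the pair, counted per library, named HSPB2 on strand 1 and CRYAB on strand -1. No row named both genes, and 0 rows named a further gene. All 10 values that the tables give for a window, including category, scores and abundances, were equal on both strands in 64 of 64 windows. The listing therefore holds the same evidence entered once per strand, and which of the 2 transcripts gave the fragment cannot be told apart from these values. All windows were assigned to miR-125a, and their start plus cleavage position gave 1 cut position, 39641670 on chromosome 9, with the genome build not given in the sources used here. All windows started at 39641606 or later, ended at 39641667 or earlier, and their end lay 10 bases beyond their start, so each ended short of the cut.

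**Figure D1:**
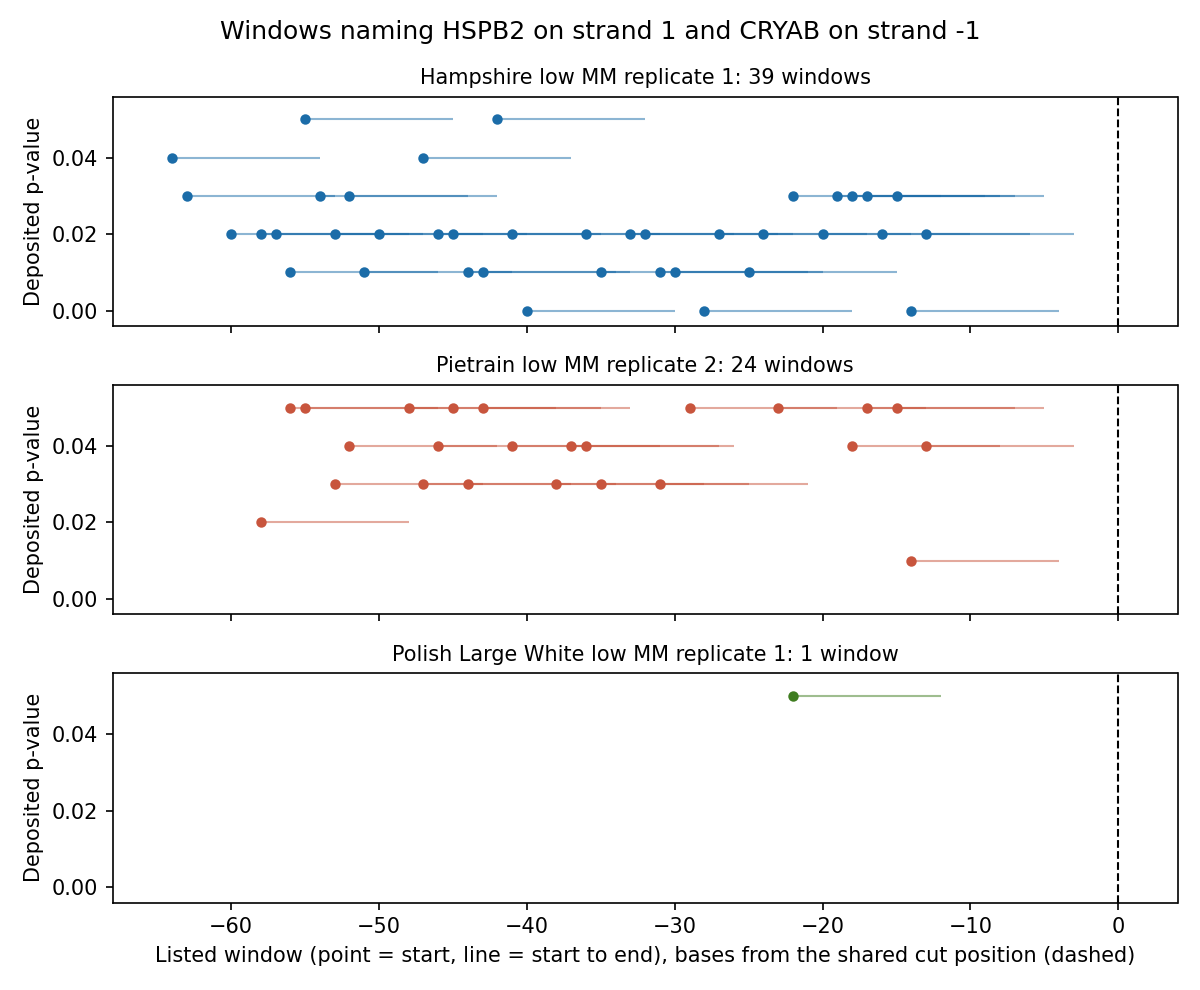
Windows that named the pair in each of the 3 listing libraries (points at the window start, lines to its end; x axis, bases from the shared cut position; y axis, p-value as deposited, given to 2 decimals). The Hampshire library held 39 windows with p-values from 0 to 0.05, the Pietrain library 24 from 0.01 to 0.05, and the Polish Large White library 1 at 0.05.

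Hampshire low MM replicate 1 listed 39 windows at this cut, with cleavage positions of 13 to 64 bases from the window start. Pietrain low MM replicate 2 listed 24 windows, with cleavage positions of 13 to 58. Polish Large White low MM replicate 1 listed 1 window, which started at 39641648 with the cleavage position at 22. The libraries thus differed widely in how many windows they listed, although the cut position was the same.

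Over all libraries 44 distinct windows were listed. The Hampshire and Pietrain libraries shared 19 of them, which was 48.7% of the Hampshire windows and 79.2% of the Pietrain windows. The Polish Large White window was also listed in the Hampshire library, while the nearest Pietrain window lay 1 base away, and 0 windows were common to all 3 libraries. Of the 19 shared windows the deposited p-value was lower in the Hampshire library in 16, equal in 2 and higher in 1. These windows belong to 1 cut with a fragment abundance of 1 in each library, so they are not separate comparisons. No listed window of the pair had a p-value above 0.05, and whether windows above it were left out is not given. The median p-value over windows was 0.02 in the Hampshire library, 0.04 in the Pietrain library and 0.05 for the Polish Large White window. A p-value of at most 0.02 was given to 27 Hampshire windows, of which 3 were listed at 0, to 2 Pietrain windows and to 0 in the Polish Large White library. The deposited p-values varied among windows of the same cut, small RNA and fragment count, as the plot of windows by p-value shows.

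The evidence behind the cut was a handful of fragments. PAREsnip categories run from 0, the strongest, to 4, and the Hampshire and Pietrain interactions were category 4, each with a fragment abundance of 1. The Polish Large White interaction was category 2 with a fragment abundance of 3. In all tables the 3844 rows of category 4 had a fragment abundance of 1, and 0 rows of categories 0 to 3 did. Category 4 and a fragment abundance of 1 thus mark the same rows and are 1 trait, not separate evidence. Over all 2943 interactions, counted once per library, small RNA and cut position, 8.09% were category 4 and the median fragment abundance was 20. The Hampshire and Pietrain interactions therefore stood at the low end of what the tables list, and the Polish Large White interaction below the median fragment abundance. Whether the fragment abundances of all small RNAs stand on the same scale was not tested. At the recurrent miR-4331-5p cuts with a gene on each strand, for example, the highest values were 20, 100, 460, 960 and 2480.

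The alignment score, a penalty for mismatches that is 0 for a perfect duplex, was 4.5 for the pair in all 3 libraries. That was the highest score in any table, while the median over all interactions was 4, and 948 interactions (32.2%) had the score 4.5. The share at 4.5 differed by library: it was 95.6% of interactions in Hampshire low MM replicate 1, and 9.54% to 62.2% in the other 11 libraries. It was 21.8% in Pietrain low MM replicate 2 and 22.3% in Polish Large White low MM replicate 1. The score of the pair was thus near universal in its Hampshire library and that of a minority in the other two.

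Normalized weighted abundance, a signal whose scale is not given, was 0.0114 in the Hampshire library, where the median interaction had 0.0599. It was 0.00596 in the Pietrain library, against a median of 0.0220 there, and 0.00261 in the Polish Large White library, against 0.0293. In the Hampshire library 39 of 182 interactions (21.4%) had a lower value than the pair. In the Pietrain library 29 of 417 (6.95%) did, and in the Polish Large White library 9 of 328 (2.74%). In each library the pair lay below the median. The weighted abundance before normalization ran the other way: 0.0204 in the Hampshire, 0.0244 in the Pietrain and 0.0714 in the Polish Large White library. The rows were normalized with different factors, described below, and interactions with several values entered with the highest. The ranks are therefore not compared between libraries.

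**Figure D2:**
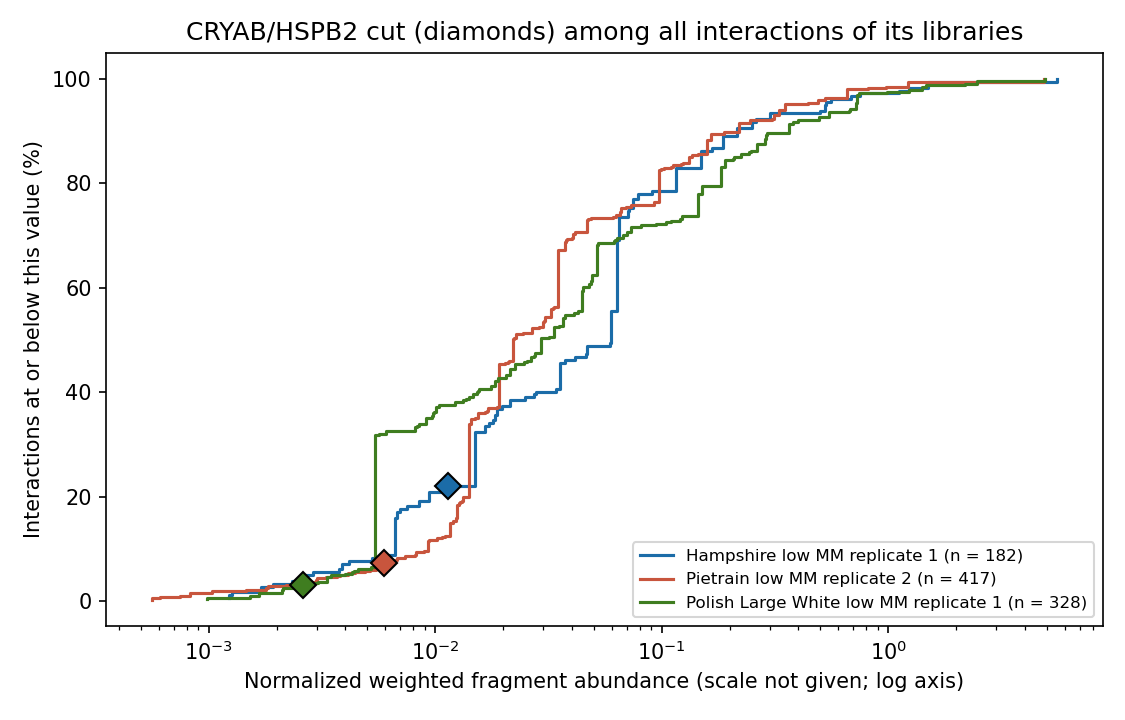
Cumulative share of interactions (y axis, percent at or below the value) by normalized weighted fragment abundance (x axis, log scale) in the 3 libraries that listed the pair, with the miR-125a cut of CRYAB and HSPB2 as diamonds. The diamonds stand at 0.0114, 0.00596 and 0.00261, all on the lower part of their curves.

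The normalized value is the weighted value times a factor. Most tables hold a single factor, and 5 tables hold 2. Factors under 0.15 are called here the deeper class and the others the shallower class. The pair's rows had a factor of 0.557 in the Hampshire library and 0.244 in the Pietrain library, both of the shallower class, and 0.0365 in the Polish Large White library, of the deeper class. All 3 libraries belong to the 5 that hold both classes, yet the pair's cut was listed in 1 class in each. In the Hampshire library 37 interactions were listed in both classes, 13 in the shallower alone, the pair's among them, and 132 in the deeper alone. In the Pietrain library these numbers were 92, 139 (with the pair's cut) and 186, and in the Polish Large White library 72, 68 and 188 (with the pair's cut).

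Fragment abundance divided by the weighted value is read here as the number of matching positions of the fragment. It came out whole, within 0.01, in 2391 of 2940 interactions (81.3%), the pair's 3 among them, and the reading was not tested for the others. The number was 49 in the Hampshire library, 41 in the Pietrain library and 42 in the Polish Large White library. It exceeded the listed windows by 10, 17 and 41 in the same order of libraries. Over those 2940 interactions, for which it could be computed, 0 had more windows than matching positions, and the median was 104 matching positions. All 144 interactions with 20 or more windows had at most 80 matching positions, with a median of 59. The cleavage positions in the tables ran from 10 to 71, which allows 62 window starts for 1 cut, and 1249 interactions (42.4%) had that many matching positions or fewer, the pair's 3 among them. The plot of windows against matching positions shows the Hampshire and Pietrain cuts near the line where both numbers are equal and the Polish Large White cut far below it. Whether the matching positions without a listed window lie at the same cut or elsewhere in the genome was not tested.

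**Figure D3:**
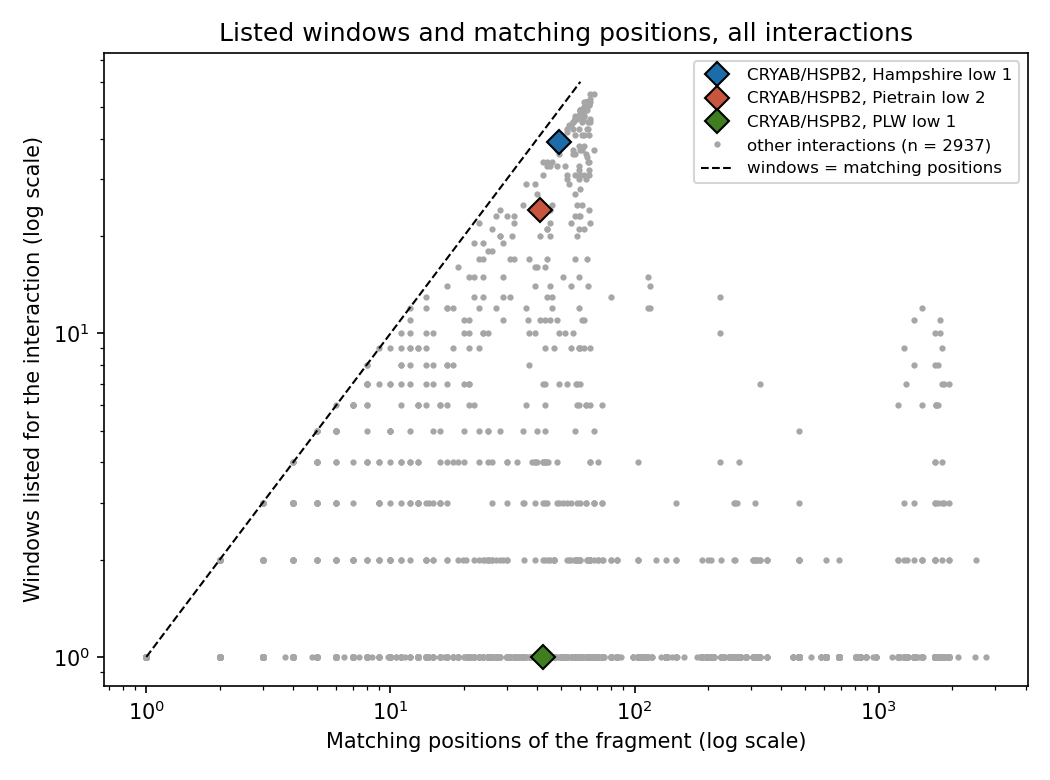
Windows listed per interaction (y axis, log scale) against matching positions of the fragment (x axis, log scale) for the pair's 3 interactions (diamonds) and the other interactions (grey). The pair had 39 windows at 49 positions, 24 at 41 and 1 at 42, and no interaction lay above the dashed line of equal numbers.

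Most interactions were listed with few windows: 77.2% had 1 window, and the most for an interaction was 55. The pair's Hampshire cut, with 39 windows, was 1 of 74 interactions with that many or more, and 121 reached the 24 windows of the Pietrain cut. Within its library, 10 interactions had more windows than the pair's in the Hampshire table, 14 in the Pietrain table and 82 in the Polish Large White table. Each window of the pair was entered once per strand, so its row counts were fixed by its windows. They did not rise with the fragments found, since the library with 3 fragments had 2 rows and those with 1 fragment had 78 and 48.

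By titles the pair was listed in 0 of 6 high MM libraries and 3 of 6 low MM libraries, 1 in each breed. Of 58 genes listed in exactly 3 libraries, 13 were listed in low MM libraries alone (22.4%) and 0 in high MM libraries alone. By tab names the split was 1 high MM library and 2 low MM libraries, as for 33 of those 58 genes (56.9%). CRYAB and HSPB2 are themselves counted in the 58, the 13 and the 33, although they hold the same evidence. The pair's listing was used to choose it, so nothing is read from the count. In each breed the other low MM replicate did not list the pair, so replicates of a group differed from each other.

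The libraries that listed the pair were also among those with larger tables. They held 2031 to 2949 rows, against 699 to 2640 in the 9 that did not. The relative depth, taken as the inverse of the normalization factor summed over classes, was 15.2 to 34.4 in the listing libraries and 2.40 to 36.9 in the others. Rows of the deeper class occurred in 1 high MM library and 6 low MM libraries by titles, and in 2 and 5 by tab names. Of the 5 libraries with rows of both classes, 1 was high MM and 4 were low MM by either reading, and 3 of them listed the pair. Among the 58 genes listed in exactly 3 libraries, 5 were listed only in those 5 libraries. Of these 5 genes, 4 had the same 3 libraries as CRYAB: CRYAB itself, HSPB2, TPM2 and PFKFB1. Depth and MM group moved together in this way, and the part of depth in the listing was not tested.

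**Figure D4:**
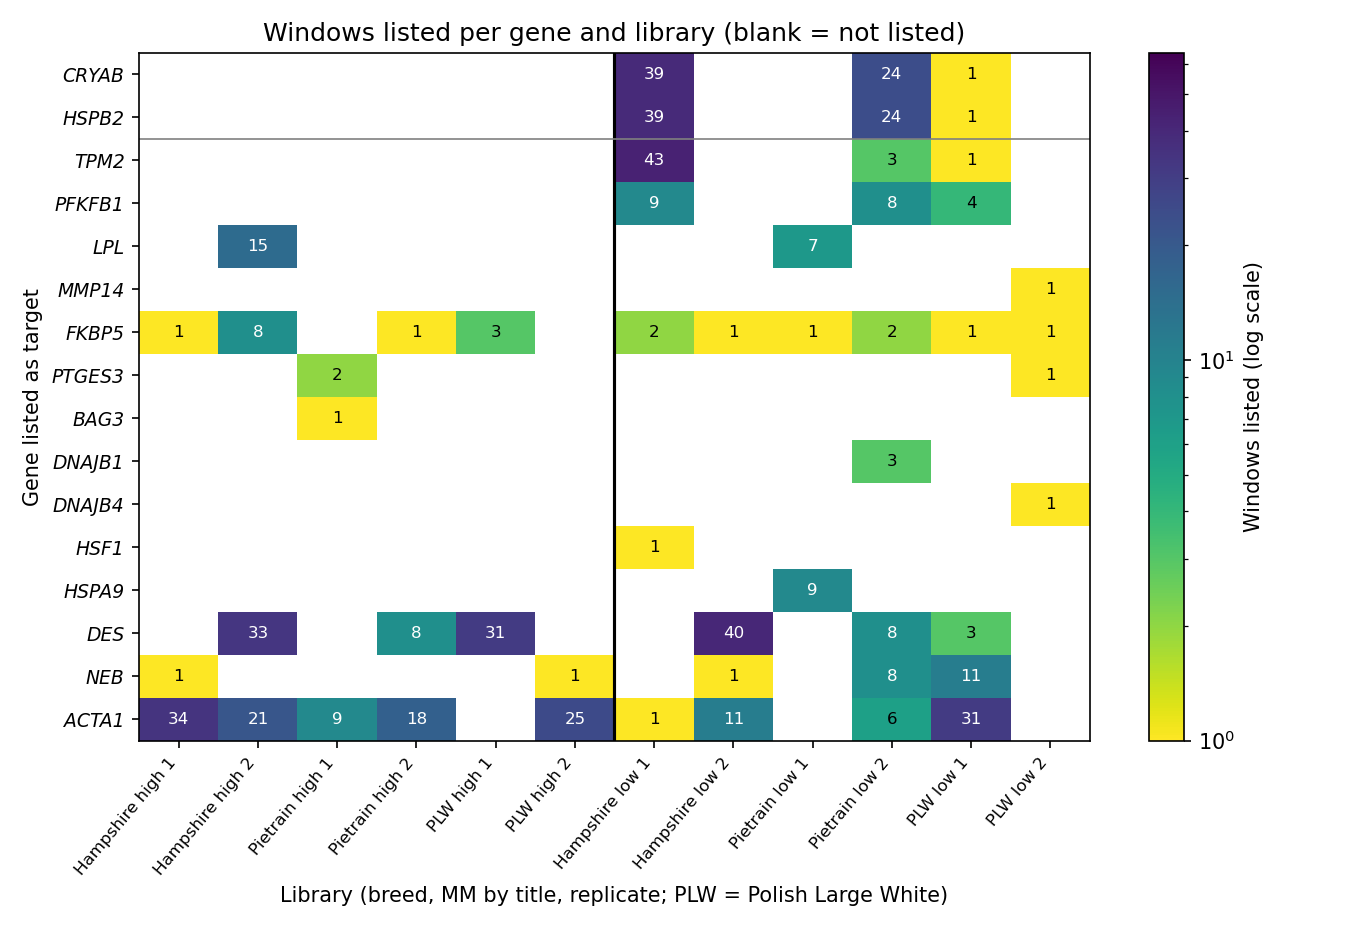
Windows listed per gene (rows) and library (columns, 6 high MM by titles on the left, 6 low MM on the right; colour on a log scale, blank where the gene was not listed). CRYAB and HSPB2 occupied the same 3 cells with 39, 24 and 1 windows, next to TPM2 and PFKFB1 with the same libraries, while FKBP5, DES and ACTA1 were listed on both sides.

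Among the rows of miR-125a, 128 of 144 (88.9%) named the pair. The miRNA was assigned 3 cut positions, of which 1, that of the pair, was found in 2 or more libraries. The others were a cut in LPL, which encodes lipoprotein lipase, and a cut in MMP14, a membrane-bound matrix metalloproteinase. LPL was cut at 4135118 on chromosome 14 in Pietrain low MM replicate 1, with 7 windows naming it on strand 1, category 4, score 4.5, a fragment abundance of 1 and 21 matching positions. MMP14 was cut at 76175840 on chromosome 7 in Polish Large White low MM replicate 2, with 1 window, category 0, score 3, a fragment abundance of 2 and 1 matching position. The normalized abundance was 0.00261 to 0.0114 for the pair, 0.00296 for LPL and 0.0858 for MMP14. The pair and LPL shared the score 4.5, and the category 4 and fragment abundance of 1 of LPL were those of the pair in its Hampshire and Pietrain libraries but not in the Polish Large White library. MMP14 had the lowest category and score of the miR-125a cuts.

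Together miR-125a appeared in 0 high MM and 5 low MM tables by titles, and in 2 high MM and 3 low MM tables by tab names. Of 11 named miRNAs listed in exactly 5 libraries, 1 (9.09%) was listed in low MM libraries alone, and that was miR-125a itself. The 5 libraries include the 3 of the pair, whose libraries and miRNA were used to choose it, so nothing is read from this share. No such share was computed for the split by tab names. The short read abundance of miR-125a was listed as 1 in all 3 libraries of the pair. The total over the small RNA input was only 192 in the Hampshire, 211 in the Pietrain and 212 in the Polish Large White library. Over all 12 libraries this total ranged from 174 to 424. What the input consisted of is not given, and the values of other small RNAs were not compared. The 1 is therefore not read as a level of miR-125a in the muscle. The related miR-125b was assigned other targets. They were the opposite-strand genes GPRC5B and IQCK in Pietrain low MM replicate 2, category 1 with a fragment abundance of 2, and AMOTL1 in Polish Large White low MM replicate 1, category 1 with a fragment abundance of 3. AMOTL1 lies on chromosome 9 as the pair does, with its cut at 26976231. The miR-125b cuts had 7 and 6 matching positions.

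The tables held 117 distinct cut positions on chromosome 9. The nearest to the pair's cut at a lower coordinate was 3404971 bases away, in SLN, the sarcolipin gene, with miR-181b. The nearest at a higher coordinate was 78016 bases away, in DIXDC1, with an unnamed small RNA. In the RefSeq table of Sscrofa11.1, used here for gene order alone, CRYAB and HSPB2 are adjacent. PPP2R1B, ALG9, FDXACB1 and C9H11orf1 stand on one side of them and C9H11orf52, DIXDC1, DLAT and PIH1D2 on the other. Of these 8 neighbours DIXDC1 was listed in 1 library and the others in 0. Over all named protein-coding genes 7.62% were listed in any library, and the neighbours were not tested against that share.

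A gene on each strand of the same window was uncommon. Of 6880 windows listed on both strands, 590 (8.58%) named a gene on both and 5280 (76.7%) on 1 strand only. The pair's 64 windows were 10.8% of the 590. Named miRNAs accounted for 66 combinations of opposite-strand genes and cut position, and 8 of those recurred in 3 or more libraries. Of the 8, 5 belonged to miR-4331-5p and 3 to other miRNAs.

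Beside the pair these were TSPAN10 and ACTG1, the gene of cytoplasmic gamma-actin, with miR-542-3p, and MAP3K15 and PDHA1, the gene of a pyruvate dehydrogenase subunit, with miR-184. The pair's cut had 0 high MM and 3 low MM libraries, 64 windows, a median over windows of 49 matching positions and a fragment abundance of up to 3. The miR-542-3p cut had 4 high MM and 3 low MM libraries, 56 windows, a median of 17 matching positions and a fragment abundance of up to 21. The miR-184 cut had 1 high MM and 2 low MM libraries, 49 windows, a median of 23 matching positions and a fragment abundance of up to 4. These library counts are by titles. By tab names the high and low MM libraries numbered 1 and 2 for the pair, 3 and 4 for miR-542-3p and 2 and 1 for miR-184.

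Recurrence over 3 libraries at so few fragments was shared with other cuts. Of 1093 positions of named miRNAs, 85 (7.78%) were listed in 3 or more libraries, and the median of their highest fragment abundance was 55. In 17 of the 85 the fragment abundance never exceeded 3, the pair's cut among them. RTN4 with miR-455-5p did not exceed 1 fragment in 4 libraries, and both cuts of COX7A1, a muscle isoform of cytochrome c oxidase, with miR-338-5p did not exceed 3 in 6 libraries each. ENO3, the muscle enolase, had 2 such cuts with miR-769-5p, in 6 and 5 libraries. COL3A1 had 2, in 4 and 3 libraries, with the same miRNA.

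These 17 positions had 23 listings in high MM libraries and 44 in low MM libraries, against 138 and 225 for the other 68 recurrent positions. By tab names these counts were 27 and 40, against 148 and 215. Of the 17, 0 were listed in high MM libraries alone, and 6 in low MM libraries alone by titles or 2 by tab names. The same counts were not made for the other 68, so nothing is read from them. The score was 4.5 in 7 of the 17. Of the 17, 1 was listed by all 3 libraries of the pair, and that was its own cut. Category 4 interactions, those of a fragment abundance of 1, numbered 10 to 25 per high MM library with a median of 13, and 13 to 39 per low MM library with a median of 22. By tab names they numbered 10 to 39 with a median of 16.5 in high MM libraries, and 12 to 30 with a median of 22 in low MM libraries. Low MM libraries thus held more listings than high MM libraries of the 17 and of the other 68 recurrent positions, by either reading. Libraries held 114 to 543 interactions each, and no share over all interactions was set beside these counts. Nothing is therefore read from the difference, and no test was made.

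By the Jaccard index of libraries, which is 1 where 2 genes are listed in the same libraries and 0 where they share none, TPM2 and PFKFB1 matched CRYAB and HSPB2 over the 12 libraries. TPM2 encodes beta-tropomyosin of the thin filament, and PFKFB1 a bifunctional enzyme that sets the level of fructose 2,6-bisphosphate. TPM2 was named in 43 rows in the Hampshire library, 3 in the Pietrain library and 1 in the Polish Large White library. Its cut at 236409502 with miR-376a-3p, named on strand 1 in the Hampshire and strand -1 in the Pietrain library, had fragment abundances of 2 and 3, and its Polish Large White row was a different cut at 236403123 with miR-4334-3p. PFKFB1 was named in 9, 8 and 4 rows in the same order of libraries, all with miR-6782-3p. Its cut at 47799856 was listed in all 3 libraries and that at 47802603 in 2. The best category was 4, 4 and 2 for the pair in these libraries and 0 in each for PFKFB1. TPM2 and PFKFB1 thus shared the libraries of the pair, and neither was assigned to its miR-125a. The next most alike, at an index of 0.667, were EEF2, EIF4G2, GYS1, PSMD2, ETF1, CCDC191 and ENSSSCG00000032543, each in 2 of the 3 libraries and with 50 to 4 rows.

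Of the small heat shock family, 2 of 11 genes were listed (18.2%), CRYAB and HSPB2. Of 16509 named protein-coding genes in the RefSeq table, 1258 (7.62%) were listed in any library, which is the share to set beside this and the following lists. It takes no account of how strongly a gene is expressed in muscle, and the lists were not tested against it. HSPB1, HSPB3, CRYAA, HSPB6, HSPB7, HSPB8, HSPB9, ODF1 and HSPB11 were in 0 libraries. HSPB3, the partner of HSPB2, and HSPB6, abundant in mammalian muscle, were thus without a listed cut. Over all 1408 gene names listed, the median was 1 library, and 1094 were in a single library.

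Of the HSP70 and HSP90 systems, 7 of 48 genes were listed (14.6%), 5 of them in a single library. FKBP5, an immunophilin that works with HSP90, was named in 38 rows, in 4 high MM and 6 low MM libraries by titles, 5 and 5 by tab names, that included the 3 of the pair, with miR-4331-5p or an unnamed small RNA. PTGES3, the HSP90 cochaperone p23, was listed in 1 high MM and 1 low MM library by titles, and in 0 and 2 by tab names. HSPA9, the mitochondrial HSP70, was listed with miR-16 in Pietrain low MM replicate 1 in 9 rows at category 0. DNAJB1, a J-domain cochaperone, was listed with miR-330-3p in Pietrain low MM replicate 2 in 3 rows at category 4.

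Of the chaperonins and stress regulators, 5 of 19 were listed (26.3%), each in 1 library. CCT5, a subunit of the cytosolic chaperonin, was listed with miR-101 in 7 rows and CCT8 with miR-4331-5p in 5 rows, both in a high MM library by titles. CCT6A was listed in 2 rows and HSF1, the main heat shock transcription factor, in 1 row, both in a low MM library by titles. HYOU1, a chaperone of the endoplasmic reticulum, was in 1 row of a high MM library. By tab names CCT5, CCT8 and CCT6A change sides, since their libraries were Pietrain, and HSF1 and HYOU1 do not. No gene of these chaperone lists outside the pair was assigned to miR-125a.

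Of 15 sarcomere and cytoskeleton genes whose proteins small heat shock proteins are known to bind, 8 were listed (53.3%). ACTA1, skeletal alpha-actin, had 157 rows in 5 high MM and 4 low MM libraries, all with miR-129a-5p. DES, the desmin gene, had 146 rows at 10 cut positions in 3 high MM and 3 low MM libraries. NEB, the nebulin gene, had 23 rows in 2 high MM and 3 low MM libraries, and ACTN2, alpha-actinin of the Z-disc, in 1 high MM and 1 low MM library in 24 rows. The other 4 were each in a single library. VIM, the vimentin gene, and MYOT, the gene of the Z-disc protein myotilin, were listed in a high MM library, and TTN, the titin gene, and DMPK in a low MM library, with MYOT and TTN changing sides by tab names. By tab names the libraries were 4 high MM and 5 low MM for ACTA1, 3 and 3 for DES, 3 and 2 for NEB and 1 and 1 for ACTN2. Of the 8 listed clients 4 thus appeared in both MM groups by either reading, and no test was made against the pair.

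The tissue label was checked against marker genes. Of 8 skeletal muscle fibre markers 6 were listed (75%), with MYH1 and TNNT3 absent. Of the other cell types, 1 of 5 adipocyte markers (LPL), 1 of 5 fibroblast markers (COL3A1, in 0 high MM and 4 low MM libraries by titles, 2 and 2 by tab names), 0 of 4 endothelial, 1 of 4 macrophage (CD14), 1 of 2 erythroid (ALAS2) and 0 of 3 Schwann cell markers were listed. COL3A1 stood in 2 of the 3 libraries that listed the pair, and its part in the listing of the pair was not tested. Marker genes without a listed cut may still be expressed, since the tables hold cuts and not transcript levels.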

How the data were processed

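Degradome (PARE) libraries of 12 pigs were analysed from PAREsnip tables. The submitters' processing notes name CASAVA 1.8.2 and FastQC; aligner, genome build, small RNA input and filter are, in the sources used here, not given. Per the file headers, the deposited category and alignment score are scores, and fragment abundance was used as a score too, since its scale is unclear. The deposited p-values of the pair are given to 2 decimals. Both the weighted and the normalized abundance, as deposited, are signal values without a stated scale, and their ratio gave the factor (deeper class under 0.15).

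The analysis used pandas 2.3.3, numpy 2.4.6 and matplotlib 3.10.9 under Python 3.11.15. Start plus cleavage position gave the cut, and interactions were counted once per library, small RNA, chromosome and cut. Matching positions were fragment over weighted abundance. Relative depth was the summed inverse of the median factor of each class. The read depth is unknown, so no interval was computed. Groups follow the titles. No test was made. Shares over all genes or miRNAs listed in as many libraries, the pair and miR-125a included, stand beside the pair's values. Alternatives were the tab-name reading, either class, stricter category or p-value, 1 strand, a single matching position, other units and leaving out each library. One result, the share of windows naming both genes, was added after the data had been seen.

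The members, gene lists and naming rule (the pair, listed family members, the 4 leading members of each other list, the 10 genes with the most similar listing, other miR-125a targets and 4 neighbours a side) were chosen with earlier results of these data known. Genes named outside that rule (for example VIM, MYOT, TTN, DMPK, HYOU1 and the cuts of low fragment abundance) were picked after their values were seen. Gene order and the number of named protein-coding genes (symbols not starting with LOC) came from the RefSeq table of Sscrofa11.1.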

Additional observations from a re-analysis of the deposited data

How the results depend on the processing

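Of 148 alternative values computed for 9 results, 130 stayed with the reported value, 18 moved and 0 reversed. Leaving out any of the 9 libraries that did not list the pair could only return the reported value. Those alternatives therefore say nothing about how stable a result is. Counts within a ratio of 1.5 of the reported value were taken as staying. So was a median abundance within the standard deviation over the 3 listing libraries, 0.00442. The share of windows naming both genes was computed only with each library left out, and moved in none of these. Cut position and alignment score moved in none of the alternatives run for them, except that rows with a single matching position left 0 rows, 0 cut positions and 0 libraries, a high minus low MM difference of 0, and no value for score, category share or abundance. The difference in libraries, -3 by titles, was -1 by tab names. With the deeper class alone, or with categories 0 to 2 alone, 2 rows in 1 library remained and the difference was -1. A p-value of at most 0.02 left 58 rows, and strand 1 alone 64. The median normalized abundance of 0.00596 was 0.0114 with every row counted, 0.0244 as weighted and 1 as fragment abundance. Leaving out 1 library gave 50 rows without Hampshire low MM replicate 1, 80 without Pietrain low MM replicate 2 and up to 128 otherwise. No test was made, so no fit with the breed or the replicate number as a block was run. The fragment abundance of 1 to 3, with the read depth unknown, limits the precision of every value for the pair.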
